A study of Mus musculus with 40 samples.

Results

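Leukocyte adhesion molecules and integrins were examined as 9 genes, found by their symbols in the count table. They are the integrin ligands Icam1 and Vcam1, the selectins Sele and Selp, the selectin ligand Selplg, and the integrin subunits Itgal, Itga4, Itgb2 and Itgb7. Icam1, Vcam1, Sele and Selp are best known from endothelium, but which cells of these tumors made them was not tested. Each symbol occurred once among the 54087 genes of the table, and all 9 genes were among the 14760 genes that passed the filter on low counts. The samples were fragments of CT26 tumors, grown from a transplantable colon carcinoma line of BALB/c mice, with 5 mice in each of 8 groups. Every mouse received 1000000 CT26 cells under the skin, intraperitoneal mAbs on days 6, 9 and 12, and had its tumor collected on day 13. Control mice received motavizumab, an isotype control that recognizes no mouse protein. In 4 groups a mAb was given alone. Anti-GARP:TGF-β1, which blocks the release of active TGF-β1 by regulatory T cells, was used in a WT form in one group and, in another, in an FcD form whose Fc binds no Fcγ receptor. The third group received anti-TGF-β, which neutralizes all TGF-β isoforms, and the fourth received anti-PD-1 FcS, an antibody with a silent Fc that blocks the PD-1 receptor. The other 3 groups received anti-PD-1 FcS together with the WT form, the FcD form or anti-TGF-β, and are called the WT, FcD and anti-TGF-β combinations. The labels do not give the age of the mice, which the study's methods state only as a range of weeks. All tumors came from 1 cell line in 1 mouse strain, and each library came from unsorted tumor tissue.

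Leukocytes leave the blood in steps. The selectins E-selectin (Sele) and P-selectin (Selp) appear on activated endothelium and slow passing leukocytes by binding carbohydrates that are carried, among others, by PSGL-1 (Selplg). Chemokine signals then switch on integrins, which hold the leukocyte firmly. LFA-1, a pair of the subunits Itgal and Itgb2, binds ICAM-1, and Itga4 pairs either with Itgb1 to bind VCAM-1 or with Itgb7 to bind MAdCAM-1 in the gut. TNF, IL-1 and IFNγ are classical inducers of the endothelial ligands, and in tumors ICAM-1 can also be made by macrophages and by the cancer cells.

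The promoters of Icam1, Sele and Selp are shown because the inducing cytokines are known to act through motifs near the start site. RefSeq windows (build GRCm38.p6) were matched by symbol for 5 of the 9 members, Icam1, Sele, Selp, Itga4 and Itgb7. Each stretch holds the 250 bases before the start site, read 5′ to 3′ on the + strand, with matches to AP-1 (TGANTCA) or GAS (TTCNNNGAA, an element of IFNγ-responsive promoters) in capitals.
Icam1, chr9:21015690-21015939: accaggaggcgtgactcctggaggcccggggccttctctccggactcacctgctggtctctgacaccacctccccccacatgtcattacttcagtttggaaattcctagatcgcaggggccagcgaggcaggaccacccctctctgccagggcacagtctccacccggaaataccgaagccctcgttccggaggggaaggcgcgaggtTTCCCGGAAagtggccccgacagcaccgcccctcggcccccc
Sele, chr1:164047984-164048233: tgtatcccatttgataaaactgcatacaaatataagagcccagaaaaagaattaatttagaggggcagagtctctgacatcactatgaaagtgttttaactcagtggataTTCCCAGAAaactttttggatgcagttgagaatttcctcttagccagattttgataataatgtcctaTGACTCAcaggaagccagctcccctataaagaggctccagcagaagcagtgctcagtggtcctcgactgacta
Selp, chr1:164115014-164115263: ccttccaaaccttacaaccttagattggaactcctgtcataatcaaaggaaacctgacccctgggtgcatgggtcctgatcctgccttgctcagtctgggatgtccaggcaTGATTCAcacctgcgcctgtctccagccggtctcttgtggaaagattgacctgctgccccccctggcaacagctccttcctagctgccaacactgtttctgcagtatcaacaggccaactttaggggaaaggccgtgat

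Icam1 held 1 GAS match at positions -42 to -34, counted back from -1 at the base before the start site. Sele held a GAS match at -140 to -132 and an AP-1 match at -73 to -67, and Selp held an AP-1 match at -139 to -133. Both strands of windows of 300 bases, which run on 50 bases past the start site, were searched. No match overlapped another. Of all 32851 such promoter windows, 8.3% held a GAS match and 7.81% an AP-1 match. Itga4 and Itgb7 held neither motif in their windows. A strict form of the NF-κB consensus, which has to begin with 3 G, was searched too, and 4.51% of all windows and none of the 5 held it. Such a search leaves out looser forms, among them the ggaaattcc in the Icam1 stretch, so it says nothing about NF-κB at these genes.

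Sele and Selp lie near each other on chromosome 1 of GRCm38, at 164048234 to 164057677 (ENSMUSG00000026582) and 164115264 to 164150026 (ENSMUSG00000026580), both on the + strand. Icam1 spans 21015985 to 21028817 on chromosome 9 (ENSMUSG00000037405), and Vcam1 spans 116109949 to 116129688 on chromosome 3 (ENSMUSG00000027962). The β2 subunit gene Itgb2 spans 77530252 to 77565708 on chromosome 10 (ENSMUSG00000000290), and the β7 subunit gene Itgb7 spans 102215995 to 102231944 on chromosome 15 (ENSMUSG00000001281). Itgal spans 127296260 to 127335138 on chromosome 7 (ENSMUSG00000030830), Itga4 spans 79255426 to 79333123 on chromosome 2 (ENSMUSG00000027009), and Selplg spans 113818536 to 113832644 on chromosome 5 (ENSMUSG00000048163). Counts are of reads over the exons of each gene. Whether the counting used the strand is not given in the sources used here, so reads of Icam1, Vcam1 and Selp may include those of antisense transcripts annotated over them, and reads of Itga4 those of Cerkl on the opposite strand.

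Total counts ran from 11931730 to 20680548 per mouse (median 14030511), and every member had at least 102 counts in every mouse. Libraries numbered 41 to 60 held 0 to 6 counts of Xist and 266 to 1078 counts of 4 Y-linked genes, libraries 61 to 80 held 784 to 12701 and 0 to 1, and each group had 2 or 3 mice in either part, so fold changes are also given within each part. A tumor of the WT combination stood apart in leukocyte and endothelial cell markers. In this mouse, replicate 5, 10 leukocyte markers summed to 4580 CPM (counts per 1000000 counts of a library, with library sizes scaled by TMM), against 574 to 2240 CPM in the other 39 mice, and 15 endothelial cell markers summed to 713 CPM, against 127 to 444 CPM. Counts, medians and fold changes of the members in the WT combination against the isotype control are therefore also given without that tumor, in the same model fitted to the other 39 mice. Replicate 4 of the FcD combination was the highest of all mice for adipocyte (659 CPM), keratinocyte (30.1 CPM) and CT26 epithelial markers (545 CPM), and the main counts of the FcD combination against the isotype control are also given without it. Both settings were chosen after the values were seen. The 8 epithelial markers of the CT26 label summed to 9.25 to 545 CPM, with Krt8 and Epcam at 0 counts in at least 1 mouse and Vil1 below the filter. Lrrc32, which encodes GARP, had 1.66 to 14.4 CPM, Tgfb1 66.5 to 190 CPM and Pdcd1, which encodes PD-1, 1.07 to 46.3 CPM, and since the mAbs act on proteins these levels do not check the labels.

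Per length of merged exons, the 9 members covered a wide range of levels, as medians over 40 mice. Itgb2 stood at 50 CPM per kb, Itgb7 at 47.8, Sele at 44.3 and Vcam1 at 31.3. Itgal, Selplg, Selp and Icam1 formed a lower group, at 9.93, 9.53, 8.96 and 6.84 CPM per kb, and Itga4 was lowest at 1.85 CPM per kb. The 15 endothelial cell markers had medians of 0.118 (Vwf) to 7.86 CPM per kb (Pecam1), so the medians of Sele, Selp and Vcam1 lay above those of all 15 markers, and that of Icam1 lay within their range. The 10 leukocyte markers had medians of 4.53 (Ikzf1) to 60 CPM per kb (Cd52).

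**Figure D1:**
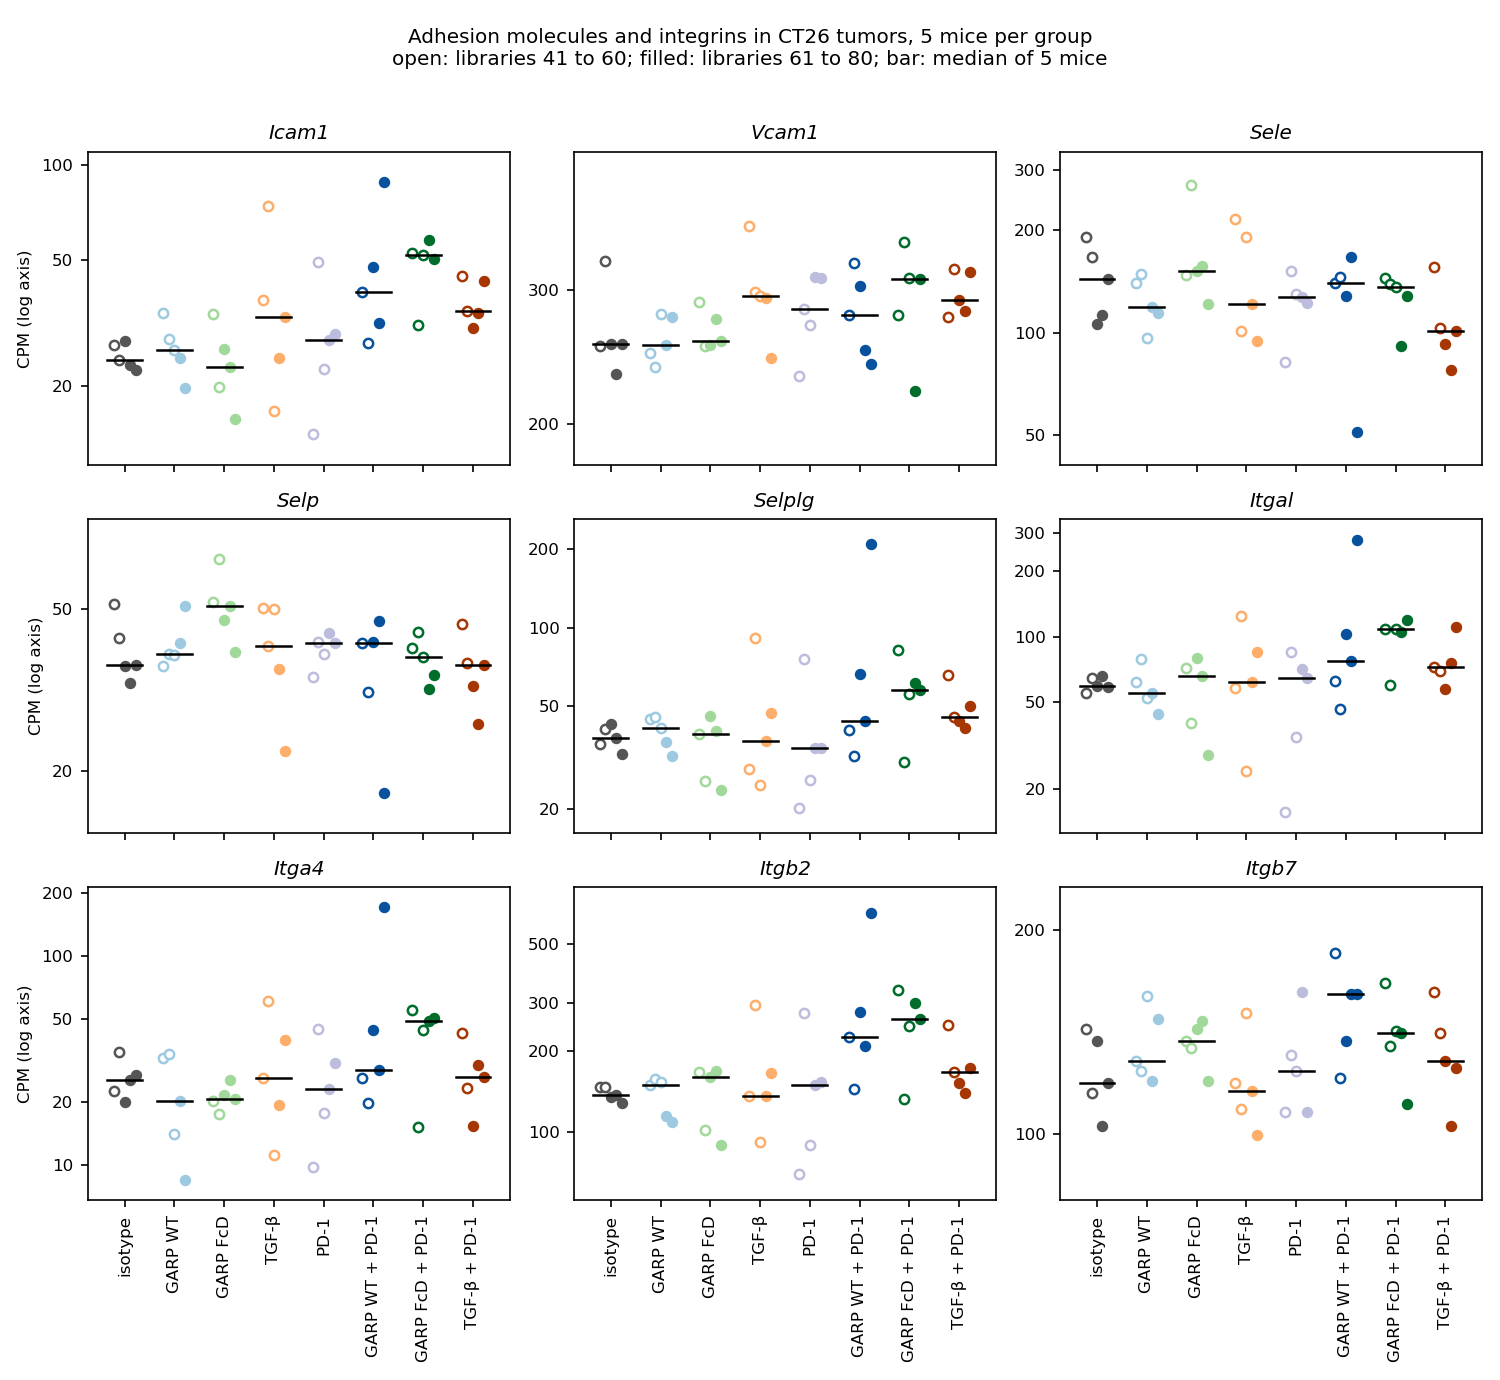
Level of each member in each of the 40 mice, as CPM on log axes with a separate range for each gene. Columns are the 8 groups (GARP stands for anti-GARP:TGF-β1, TGF-β for anti-TGF-β, PD-1 for anti-PD-1 FcS), open circles are libraries 41 to 60, filled circles libraries 61 to 80, and bars are medians of 5 mice. Icam1 lies above all isotype control mice in the 5 mice of the FcD combination and in the 5 of the anti-TGF-β combination, and 1 mouse of the WT combination is far above the rest for Selplg, Itgal, Itga4 and Itgb2.

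The first question was whether the mAbs changed the levels of these genes against the isotype control. In edgeR's quasi-likelihood test over all 14760 genes, no gene passed an adjusted p of 0.05 in any of these 7 comparisons, so 0% of genes and 0 of the 9 members were called. Unadjusted p-values are therefore given as a description, and a gene is called nominally higher or lower where its unadjusted p was under 0.05. With the WT combination 6 members were nominally higher and 0 lower, where 20.7% of all genes were nominally different and 13.2% higher. In the FcD group Icam1 and Itgb2 were nominally higher (2 of 9), where 16.6% of all genes were different and 10.7% higher. With the anti-TGF-β combination 0 of 9 were, where 20.1% of all genes were different and 8.49% higher. The median log2 fold change of the 9 members was 0.90, 0.60 and 0.17 in these 3 comparisons in the same order, while the medians over all genes were 0.0129, -0.00398 and 0.0217. Without the tumor that stood apart the median of the members in the WT combination was 0.25, that over all genes was 0.00528, and 2 members were nominally higher, where 5.84% of all genes were nominally different and 2.8% higher. Without replicate 4 of the FcD combination the median of the members was 0.58 and 3 were nominally higher (Icam1, Vcam1 and Itgb2), where 7.99% of all genes were different and 5.35% higher.

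Icam1 was the member with the most even difference. Its levels in the isotype control mice were 26.9, 24.1, 27.7, 23.2 and 22.4 CPM, a narrow range. With the FcD combination they were 52.6, 31.2, 51.9, 57.9 and 50.2 CPM, and with the anti-TGF-β combination 44.6, 34.4, 30.5, 34 and 42.8 CPM. In both of these groups all 5 mice lay above all 5 isotype control mice, as did 1.96% of all genes with the FcD combination and 1.73% with the anti-TGF-β combination. With the WT combination the levels were 39.5, 27.3, 47.4, 31.6 and 88 CPM, and the lowest of them lay within the control range, so that Icam1 was not among the 1.35% of genes without overlap there. The log2 fold change of Icam1 was 0.97 (SE 0.31, unadjusted p = 0.00313, adjusted p = 0.225) with the FcD combination. It was 0.91 (SE 0.31, unadjusted p = 0.00522, adjusted p = 0.159) with the WT combination and 0.58 (SE 0.31, unadjusted p = 0.0646, adjusted p = 0.276) with the anti-TGF-β combination. Within libraries 41 to 60 and 61 to 80 these values were 0.83 and 1.14 with the FcD combination, 0.39 and 1.19 with the WT combination, and 0.63 and 0.55 with the anti-TGF-β combination, positive in each part. Without the tumor that stood apart, the value for the WT combination was 0.55 (SE 0.29, unadjusted p = 0.066).

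Vcam1, the other ligand for integrins, hardly varied between groups. Over the 40 mice it ran from 221 to 364 CPM, a 1.65-fold range, and its group means lay between 259 ± 17.8 (SD, n = 5) with the WT form alone and 299 ± 42.5 CPM with anti-TGF-β. Its log2 fold changes in the combinations were 0.08 (WT), 0.15 (FcD) and 0.16 (anti-TGF-β), each with an SE of 0.11, and the unadjusted p-values were 0.474, 0.172 and 0.13. The value for the WT combination was 0.13 (SE 0.11) without the tumor that stood apart. Without isotype control replicate 2, the highest control mouse at 327 CPM, Vcam1 was nominally higher with the FcD and with the anti-TGF-β combination, where 16.2% and 15.3% of all genes were nominally different.

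The selectins Sele and Selp had log2 fold changes below or near 0 in the combinations. Sele was at 191, 167, 106, 113 and 144 CPM in the isotype control mice and at 156, 103, 92.5, 77.7 and 101 CPM with the anti-TGF-β combination, where 4 of 5 mice lay below all controls and the fifth lay among them. This gave the most negative log2 fold change of a member against the isotype control, -0.44 (SE 0.25, unadjusted p = 0.0899, adjusted p = 0.316), with -0.46 and -0.42 in the 2 library parts. Without the highest mouse of that group, replicate 1, it was -0.61 and nominally lower (adjusted p = 0.107), in a setting where 30.1% of all genes were nominally different and 2013 were called. With the WT and FcD combinations the values of Sele were -0.19 (SE 0.25) and -0.17 (SE 0.25). Selp ran from 17.6 to 66.5 CPM, with log2 fold changes of -0.16 (WT), -0.09 (FcD) and -0.17 (anti-TGF-β), each with an SE of 0.19. The lowest Sele and Selp of all 40 mice, 51 and 17.6 CPM, were those of the tumor that stood apart, the one with the highest endothelial cell markers. Without it the log2 fold changes in the WT combination were 0.0066 for Sele and 0.0088 for Selp.

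The selectin ligand Selplg and the integrin subunits Itgal, Itga4 and Itgb2 were highest, as group means, with the WT combination and next highest with the FcD combination. Itgb2, the β subunit of LFA-1 and Mac-1, was at 147, 147, 135, 137 and 128 CPM in the isotype control mice. With the WT combination it was at 226, 144, 279, 208 and 649 CPM and with the FcD combination at 336, 133, 248, 302 and 263 CPM, so that in either group 4 of 5 mice lay above all controls and 1 among them. The log2 fold changes of Itgb2 were 1.12 (SE 0.33, unadjusted p = 0.00185, adjusted p = 0.159) and 0.88 (SE 0.33, unadjusted p = 0.0112, adjusted p = 0.24). With the anti-TGF-β combination the levels of Itgb2 were 250, 167, 152, 140 and 173 CPM, 4 of 5 above all controls, with a log2 fold change of 0.34 (SE 0.33).

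Itgal, the α subunit of LFA-1, was at 54.9, 64.7, 59.5, 65.8 and 58.7 CPM in the isotype control mice. It was at 62.3, 46.5, 103, 77.2 and 277 CPM with the WT combination and at 108, 59.7, 108, 105 and 119 CPM with the FcD combination. Apart from its lowest mouse, the FcD group lay at 105 to 119 CPM, above all controls, while the WT group spread widely on both sides of the controls. The log2 fold changes of Itgal were 0.90 (SE 0.39, unadjusted p = 0.0285, adjusted p = 0.198) and 0.72 (SE 0.39, unadjusted p = 0.0754, adjusted p = 0.34).

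Itga4, the α subunit of VLA-4, was at 22.7, 34.8, 20.1, 25.5 and 27.1 CPM in the isotype control mice and at 26.1, 19.9, 44.6, 28.5 and 171 CPM with the WT combination. The mean of the WT combination, 57.9 ± 63.6 CPM (SD, n = 5), thus rested on 1 mouse, and 2 of its 5 mice lay above all controls. With the FcD combination Itga4 was at 55.4, 15.2, 44.5, 48.8 and 50.6 CPM, where 4 mice lay above all controls and 1 below. The log2 fold changes of Itga4 were 1.16 (SE 0.47, unadjusted p = 0.0197, adjusted p = 0.179) and 0.72 (SE 0.47, unadjusted p = 0.135, adjusted p = 0.416).

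Selplg, which encodes PSGL-1, was at 35.5, 40.5, 42.6, 37.5 and 32.4 CPM in the isotype control mice and at 40.3, 32, 66.4, 43.7 and 209 CPM with the WT combination. Its highest WT mouse was again the tumor that stood apart, and 3 of the 5 mice lay above all controls. With the FcD combination Selplg was at 81.6, 30.4, 55.6, 61.2 and 57.4 CPM, 4 of 5 above all controls. The log2 fold changes of Selplg were 1.05 (SE 0.38, unadjusted p = 0.00896, adjusted p = 0.159) and 0.60 (SE 0.38, unadjusted p = 0.121, adjusted p = 0.4).

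In the WT combination these 4 differences depended on the library part and on 1 tumor. Within libraries 41 to 60, the log2 fold changes were -0.07 for Selplg, -0.14 for Itgal, -0.32 for Itga4 and 0.33 for Itgb2. Within libraries 61 to 80, which hold the tumor that stood apart, they lay between 1.31 (Itgal) and 1.75 (Itga4). Without that tumor the values over both parts were 0.27 (SE 0.31) for Selplg, 0.25 (SE 0.35) for Itgal, 0.19 (SE 0.40) for Itga4 and 0.62 (SE 0.30) for Itgb2. The 2 members that were nominally higher without it were Itgb2 and Itgb7. With the FcD combination the 4 genes were higher in either part, by 0.41 (Itga4) to 0.70 (Itgb2) within libraries 41 to 60 and by 0.66 (Selplg) to 1.08 (Itgb2) within libraries 61 to 80. The lowest mouse of the FcD group for all 4 genes was replicate 2, and without it Itgal was nominally higher beside Icam1 and Itgb2 (3 of 9), where 29.7% of all genes were nominally different.

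Itgb7, the partner of Itga4 in the gut-homing integrin, behaved differently from the other subunits. It was at 143, 115, 137, 103 and 119 CPM in the isotype control mice and at 185, 121, 137, 161 and 161 CPM with the WT combination, 3 of 5 above all controls. The tumor that stood apart was not the highest of these mice for Itgb7. The log2 fold change was 0.31 (SE 0.13, unadjusted p = 0.0225, adjusted p = 0.186), with 0.24 and 0.36 in the 2 library parts and 0.29 (SE 0.14, unadjusted p = 0.0428) without that tumor. Itgb7 was no longer nominally higher without WT combination replicate 1 or without isotype control replicate 4, and likewise Itgal without isotype control replicate 1. With the FcD and anti-TGF-β combinations the log2 fold change of Itgb7 was 0.17 (SE 0.13) and 0.10 (SE 0.13).

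**Figure D2:**
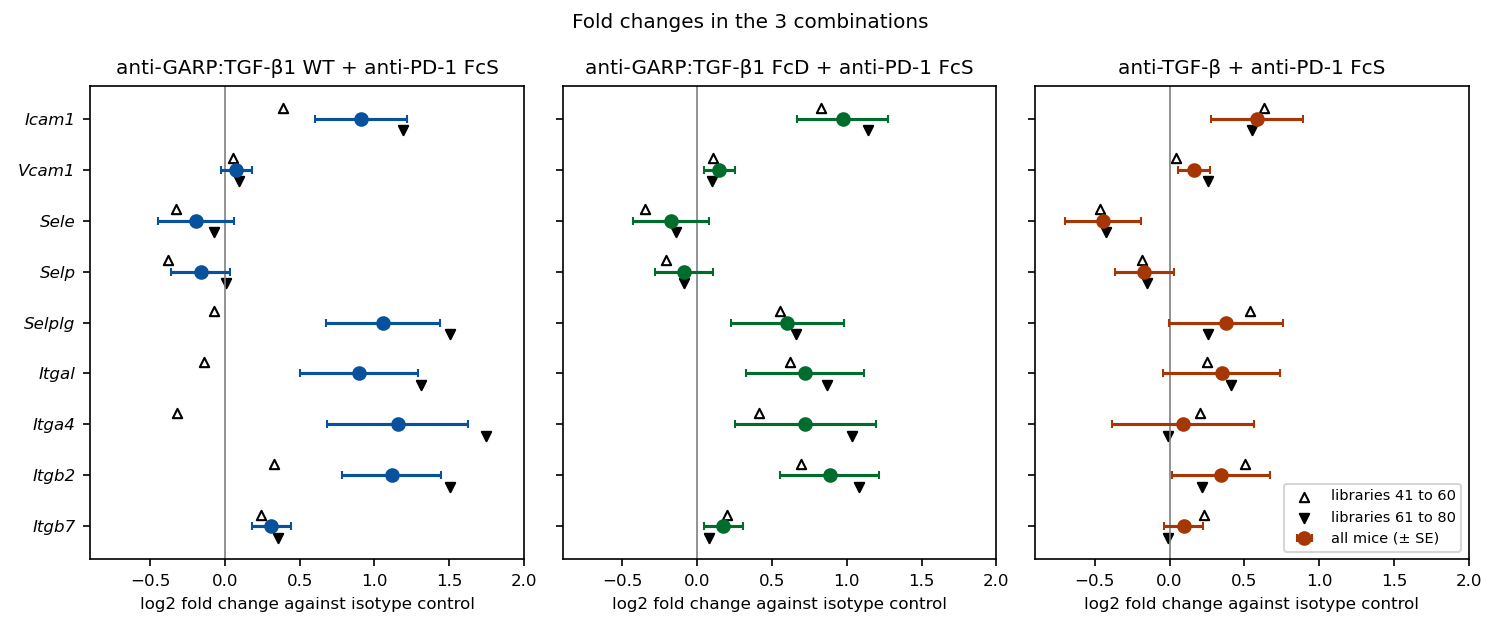
Log2 fold changes of the 9 members against the isotype control in the 3 combinations. Circles with bars are the estimates from all mice ± SE, open triangles those within libraries 41 to 60 and filled triangles those within libraries 61 to 80. In the WT combination the parts lie apart for Selplg, Itgal, Itga4 and Itgb2 (-0.32 and 1.75 for Itga4), while in the FcD combination both lie on the positive side for these genes.

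With the single mAbs, the log2 fold changes of the 9 genes had SEs of up to 0.475 (Itga4, FcD form). A lack of nominal differences there does not show unchanged levels. Over the 36 values of 9 members in 4 groups, log2 fold changes ran from -0.30 to 0.58 and no member was nominally different in the model of all mice. Of all genes, 0.969% were with the WT form, 0.474% with the FcD form, 2.32% with anti-TGF-β and 0.955% with anti-PD-1 FcS. The largest of the 36 values was that of Icam1 with anti-TGF-β alone, 0.58 (SE 0.31, unadjusted p = 0.068), where the 5 mice were at 37.4, 73.9, 16.6, 24.5 and 33 CPM. These mice lay on both sides of the controls, unlike those of the anti-TGF-β combination, although the log2 fold changes of both groups were 0.58. With a mouse left out, 3 members became nominally higher. Icam1 was so with anti-TGF-β alone without replicate 3 or 4 of that group, Vcam1 with anti-TGF-β alone without its replicate 5 or isotype control replicate 2, and Selp with the FcD form alone without its replicate 5 or isotype control replicate 1. In these settings 2.28% to 4.66% of all genes were nominally different with anti-TGF-β, and 0.461% and 0.603% with the FcD form. Selp had the next smallest unadjusted p, 0.0749, with 0.36 (SE 0.19) for the FcD form alone, the group with the highest mean of Selp, 51.1 ± 9.97 CPM (SD, n = 5), and of Sele, 170 ± 58.7 CPM. In the order of the 8 group means, no 2 neighbouring groups were apart for any of the 9 genes, in the sense that the 5 mice of one lay above the 5 of the next.

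The second question was what the other mAb added to anti-PD-1. No member passed an adjusted p of 0.05 against anti-PD-1 FcS alone, where 0% of genes were called for the WT and FcD combinations and 0.00678% (1 gene, no member) for the anti-TGF-β combination. With the WT combination 6 members were nominally higher (Icam1, Selplg, Itgal, Itga4, Itgb2 and Itgb7), where 17.2% of all genes were nominally different. With the FcD combination 3 were (Icam1, Itgal and Itgb2), against 10.7% of all genes, and with the anti-TGF-β combination 0 were, against 17.1%. The log2 fold changes of Icam1 were 0.71 (SE 0.30) with the WT and 0.77 (SE 0.30) with the FcD combination, those of Itgal 1.06 (SE 0.39) and 0.88 (SE 0.39), and those of Itgb2 1.03 (SE 0.33) and 0.80 (SE 0.33). Without the tumor that stood apart, the WT values were 0.35 (SE 0.29) for Icam1, 0.41 (SE 0.35) for Itgal and 0.54 (SE 0.30) for Itgb2, and 0 of the 9 members were nominally different, where the share of all genes went from 17.2% to 5.37%. Counts also moved with the anti-PD-1 FcS mice left out. Without their replicate 1, the lowest for Icam1, Itgal and Itgb2, the counts of members went from 6 to 3 with the WT and from 3 to 0 with the FcD combination, while the shares of all genes went to 9.57% and 7.53%. Without replicate 3 the counts were 4 and 1 (Icam1), against 10.4% and 6% of all genes. Without replicate 2, the highest for Selplg and Itgb2, both genes passed the adjusted threshold in the WT combination, at 1.45 (SE 0.39) for Selplg and 1.38 (SE 0.33) for Itgb2 (edgeR adjusted p = 0.0405 for both), among 543 of 14760 genes called and 25.9% nominally different in that setting. The FcD combination then had 5 nominally higher members, against 20.2% of all genes, and the anti-TGF-β combination 1 (Icam1), against 15.9%. Comparisons against anti-PD-1 and against the isotype control share the combination mice.

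The interaction asks whether the effect of the other mAb differed between mice with and without anti-PD-1. No gene passed an adjusted p of 0.05 in the 3 interactions (0%). For the WT form, Itga4 (1.44, SE 0.67, unadjusted p = 0.0388) and Itgb2 (1.05, SE 0.47, unadjusted p = 0.03) were nominally positive, against 8.75% of all genes nominally different. Without the tumor that stood apart these values were 0.47 (SE 0.56) and 0.56 (SE 0.41), and the count was also 0 without anti-PD-1 FcS replicate 1 or 3 or replicate 5 of the WT form alone, where 3.33% to 5.39% of all genes were nominally different in these 4 settings. For the FcD form and anti-TGF-β no member was nominally different, against 4.49% and 2.3% of all genes. Without anti-PD-1 FcS replicate 2, 5 members were for the WT form and 4 for the FcD form, against 18.6% and 11.2% of all genes. The interaction value of Icam1 for the FcD form was 0.84 (SE 0.43, unadjusted p = 0.0604), and for anti-TGF-β it was -0.19 (SE 0.43, unadjusted p = 0.655).

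Levels in whole tumors depend on which cells the tumors held, and fewer cells of a type and less RNA per cell cannot be told apart in these bulk samples. The leukocyte markers moved with the integrin subunits other than Itgb7. With the WT combination all 10 leukocyte markers were nominally higher (median log2 fold change 0.92), with the FcD combination 4 of 10 (median 0.66) and with the anti-TGF-β combination 1 of 10 (median 0.26). Of all genes, 13.2%, 10.7% and 8.49% were nominally higher in the same order, so the 1 of 10 lay near the share of all genes. The leukocyte markers summed to 946 to 1120 CPM in the isotype control mice, to 1000 to 4580 CPM with the WT combination, to 909 to 1970 CPM with the FcD combination and to 1010 to 1700 CPM with the anti-TGF-β combination. In the WT combination 0 of 10 were nominally higher without the tumor that stood apart (median 0.30), and without replicate 4 of the FcD combination 1 of 10 were there (median 0.65). The endothelial cell markers summed to 148 to 215, 127 to 713, 174 to 364 and 176 to 272 CPM in the same groups, and 6, 3 and 2 of 15 were nominally higher in the 3 combinations, with 0 in the WT and 1 in the FcD combination without the tumors named above. Each of these 25 markers was detected above the filter, and none was at 0 in all mice. Without the tumors named above, 2.8% of all genes were nominally higher in the WT and 5.35% in the FcD combination.

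Among the cell types inside the leukocyte fraction, mast cell markers were nominally higher for 7 of 7 genes with the WT combination, 7 of 7 with the FcD combination and 2 of 7 with the anti-TGF-β combination. Macrophage markers were so for 7, 3 and 1 of 9 genes, T cell markers for 3, 1 and 1 of 11, and B cell markers for 1, 0 and 5 of 6. Of all genes, 13.2%, 10.7% and 8.49% were nominally higher in the same order, so 1 of 11 and 1 of 9 lay near these shares. B cell markers summed to 7.63 to 108 CPM (median 8.73) with the anti-TGF-β combination and to 5.87 to 9.49 CPM in the isotype control. The 108 CPM were those of replicate 5, the highest of all mice, and how far the 5 of 6 rest on it was not tested. Neutrophil markers were nominally higher for 1, 5 and 4 of 7 genes, with 1 lower in the WT combination, while the defining marker Ly6g was below the filter. Platelet markers, of interest because platelets also make P-selectin, passed the filter for 3 of 6 genes and summed to 14.2 to 73.5 CPM, and 1, 0 and 0 of the 3 were nominally higher. Markers of tissue around a tumor and of epithelium stood out in the FcD combination, where 6 of 6 adipocyte, 2 of 4 keratinocyte, 3 of 8 fibroblast and 6 of 7 CT26 epithelial markers were nominally higher. Without replicate 4 of the FcD combination 1 of 6 adipocyte (median 2.32), 0 of 4 keratinocyte, 1 of 8 fibroblast and 0 of 7 CT26 epithelial markers were nominally higher. Adipocyte markers summed to 33.9 to 659 CPM there and to 2.28 to 70.2 CPM in the isotype control. In the WT combination 1 fibroblast and 1 CT26 epithelial marker were nominally higher, in the anti-TGF-β combination no marker of these 4 lists was, and no skeletal muscle marker (4 tested) was in any. The 7 mast cell markers were still nominally higher with the WT combination when the tumor that stood apart was left out (median log2 fold change 1.33), while 0 macrophage, T cell, B cell, neutrophil and platelet markers were. The 7 mast cell markers were also nominally higher with the FcD combination without its replicate 4 (median 1.27), where 1 macrophage, 1 T cell, 0 B cell and 3 neutrophil markers were. Of all genes, 2.8% were nominally higher in that setting of the WT combination and 5.35% in that of the FcD combination. The part of each cell type in the levels of the members was not tested.

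Over the 40 mice, with group means subtracted, 5 members followed the leukocyte markers and 4 did not. Pearson's r with the mean log2 CPM of the 10 markers was 0.98 for Selplg, 0.96 for Itgb2, 0.92 for Itga4, 0.92 for Icam1 and 0.89 for Itgal. Spearman's rho was 0.96, 0.94, 0.88, 0.85 and 0.86, and for each of these 5 the permutation p was 1e-05, the smallest that 100000 permutations can give, with an adjusted p of 3.6e-05 over 18 relations. Without the 2 mice farthest from the median of the marker mean, r was 0.96, 0.95, 0.88, 0.89 and 0.85, and within the 2 library parts it was 0.88 or more for all 5. For Itgb7, r was 0.0583 (rho 0.0439, permutation p = 0.769), for Vcam1 -0.17 (rho -0.11, permutation p = 0.407), for Sele -0.36 (rho -0.13, permutation p = 0.118) and for Selp -0.37 (rho -0.16, permutation p = 0.106). The values of Sele and Selp without the 2 farthest mice were 0.10 and -0.10, so much of the negative values rested on those mice. Within libraries 41 to 60 and 61 to 80, r was -0.13 and -0.76 for Sele and -0.17 and -0.75 for Selp. These relations were chosen after the values of the members were seen.

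**Figure D3:**
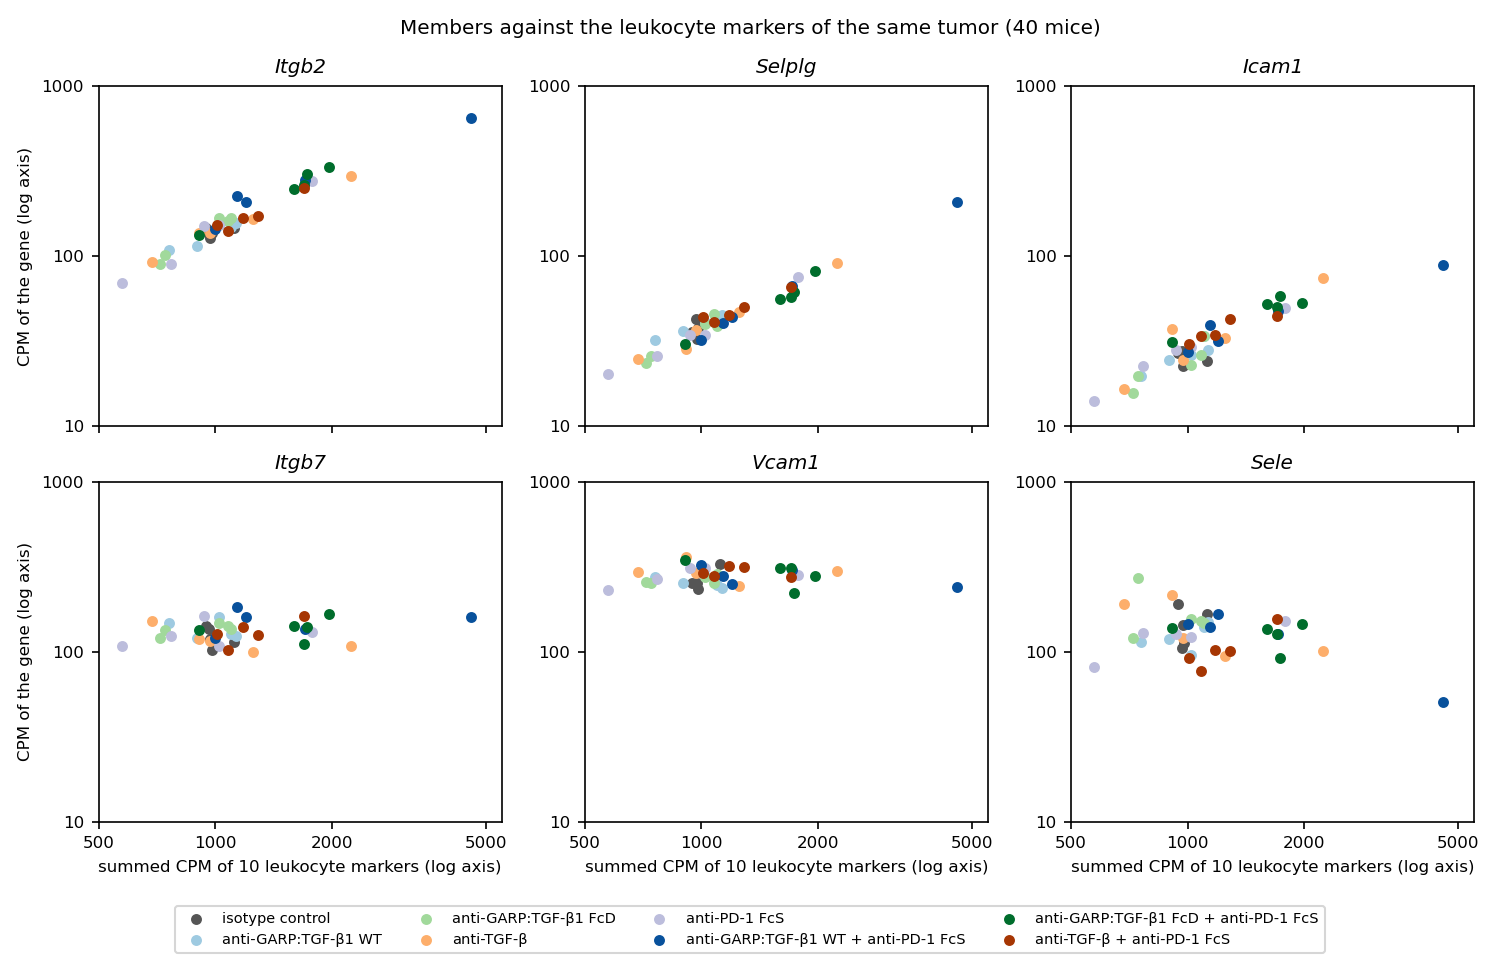
CPM of 6 members against the summed CPM of 10 leukocyte markers in the same tumor, both on log axes, for the 40 mice colored by group. Itgb2, Selplg and Icam1 lie along a rising band across all groups, and Itgb7, Vcam1 and Sele stay level or scatter, with the tumor that stood apart at the far right (4580 CPM of markers).

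The endothelial cell markers gave a weaker picture, and the members that passed were not only those best known from endothelium. Selplg (r = 0.66, adjusted permutation p = 0.011), Itga4 (r = 0.57, adjusted permutation p = 0.0128) and Itgb2 (r = 0.54, adjusted permutation p = 0.0172) were among them, each with an r of 0.285 or less without the 2 farthest mice. Icam1 had an r of 0.55 (rho 0.48, permutation p = 0.00841, adjusted p = 0.0168) with the mean of the 15 markers, with 0.50 and 0.65 in the 2 library parts and an adjusted p of 0.0155 for rho, but an r of 0.18 without the 2 farthest mice. Sele had an r of -0.56 (rho -0.41, permutation p = 0.0056, adjusted p = 0.0128), and -0.26 without those mice, with -0.48 and -0.93 in the 2 library parts. For Vcam1 r was -0.40 (rho -0.37, permutation p = 0.0355, adjusted p = 0.0581), also -0.40 without the 2 farthest mice, and for Selp it was -0.38 (rho -0.28, permutation p = 0.101). None of these 3 genes had a positive r with endothelial cell markers.

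Known partners were compared as 7 pairs, again over 40 mice with group means subtracted. The subunits of LFA-1, Itgal and Itgb2, had an r of 0.89 (rho 0.84, adjusted permutation p = 2.33e-05 over 7 pairs), and LFA-1's ligand Icam1 had an r of 0.89 with Itgal (rho 0.78, adjusted permutation p = 2.33e-05). Sele and Selp had an r of 0.83 (rho 0.74, adjusted permutation p = 2.33e-05). These 3 pairs kept an r of 0.83, 0.85 and 0.72 in that order without the 2 mice farthest from the median of the first gene, and within the library parts r was 0.92 and 0.92, 0.96 and 0.92, and 0.71 and 0.92. Leukocyte content is shared by the points of the first pairs, as the values above show, and its part in their correlation was not tested.

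The other 4 pairs did not pass. The VCAM-1 receptor subunit Itga4 had an r of -0.22 with Vcam1 (rho -0.19, adjusted permutation p = 0.299), and -0.10 with Itgb7, its own partner subunit (rho -0.19, adjusted permutation p = 0.604). Selplg had an r of -0.39 with Sele (rho -0.23, adjusted permutation p = 0.15) and -0.36 with Selp (rho -0.17, adjusted permutation p = 0.165), and without the 2 mice farthest from the median these were -0.0232 and 0.0152. Within libraries 41 to 60 and 61 to 80, r was -0.142 and -0.759 with Sele and -0.144 and -0.704 with Selp.

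A further comparison set each member against a marker list of the cell type it is best known from. For Vcam1, Sele, Selp and Itgb7 the list did not follow the gene (r of -0.40, -0.56, -0.38 and 0.0583 above), and Icam1 followed leukocyte markers more closely than endothelial ones, so that for these 5 genes the ratio cannot be read as a level per cell of that type. For each mouse the mean log2 CPM of the marker list (endothelial for Icam1, Vcam1, Sele and Selp, leukocyte for the others) was subtracted from that of the member, and the 3 combinations were compared with the isotype control by a 2-sided exact permutation test of 5 against 5 mice, whose smallest p is 0.00794. None of the 27 tests passed an adjusted p of 0.05. A test standing alone at that smallest p could not pass after adjustment over 27 tests, so this does not show unchanged ratios. Itgb2 was higher relative to leukocyte markers by 0.20 (SE 0.07, log2 scale) with the FcD combination (exact p = 0.0317, adjusted p = 0.306), with 3 of 5 mice above all controls, and by 0.24 (SE 0.11) with the WT combination (exact p = 0.0794). Selplg, Itgal and Itga4 differed by -0.27 (Itga4, anti-TGF-β combination) to 0.06 on this scale. Itgb7 was lower relative to leukocyte markers by 0.45 (SE 0.22) with the FcD combination (exact p = 0.0794), where 4 of 5 mice lay below all controls.

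Relative to endothelial cell markers, Icam1 and the selectins lay on opposite sides in the FcD and anti-TGF-β combinations. Icam1 differed by 0.35 (SE 0.18), 0.34 (SE 0.18) and 0.23 (SE 0.14) in the WT, FcD and anti-TGF-β combinations, with exact p-values of 0.103, 0.103 and 0.143. Sele differed by -0.70 (SE 0.77), -0.76 (SE 0.37) and -0.79 (SE 0.26), with exact p-values of 0.476, 0.0794 and 0.0238 and an adjusted p of 0.306 for the smallest of them. Selp differed by -0.66 (SE 0.67), -0.68 (SE 0.32) and -0.52 (SE 0.21), with exact p-values of 0.429, 0.0635 and 0.0476, and in the FcD and anti-TGF-β combinations 3 of 5 mice lay below all controls. The values of the WT combination rested on the tumor that stood apart, and without it they were -0.0096 for Sele and -0.031 for Selp, against 0.48 for Icam1.

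**Figure D4:**
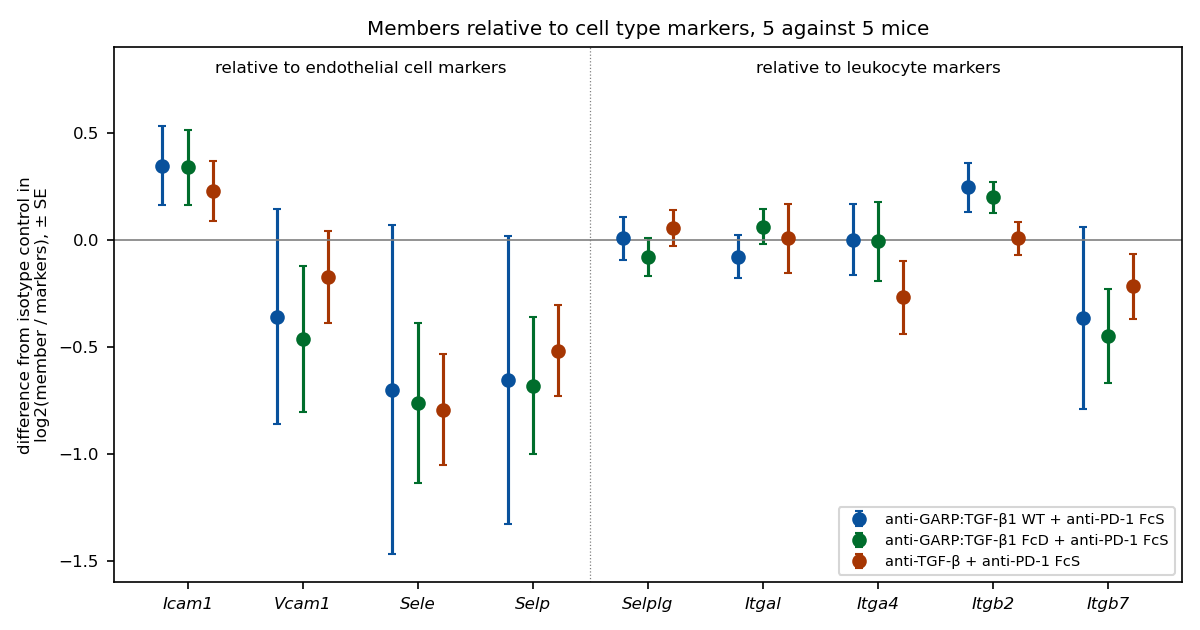
Difference from the isotype control in the log2 ratio of each member to its marker list, ± SE, for 5 against 5 mice in the 3 combinations. The points of Sele and of Selp lie between -0.79 and -0.52, of which those of the WT combination have the widest bars and rest on 1 tumor (-0.0096 and -0.031 without it), those of Icam1 between 0.23 and 0.35, and those of Selplg, Itgal and Itga4 between -0.27 and 0.06.

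Other genes of the adhesion pathway were counted from 5 lists. The counts stand beside 13.2%, 10.7% and 8.49% of all genes nominally higher in the WT, FcD and anti-TGF-β combinations, 2.8% in the WT combination without the tumor that stood apart and 5.35% in the FcD combination without its replicate 4. In the integrin activation list, which holds the inside-out signaling proteins that open integrins, 14 of 16 genes were nominally higher with the WT combination, 3 with the FcD and 2 with the anti-TGF-β combination, with median log2 fold changes of 0.65, 0.38 and 0.22. Of the 16 genes, 0 were nominally higher with the WT combination without the tumor that stood apart (median 0.18), and without replicate 4 of the FcD combination 2 were there. With the WT combination the smallest p-values were those of Dock2, a Rac activator of leukocytes (1.26, SE 0.41, unadjusted p = 0.00398), and of the adaptor Fyb (1.21, SE 0.39, unadjusted p = 0.00407), and in either gene 4 of 5 mice lay above all controls. Without that tumor the values were 0.55 (SE 0.36) for Dock2 and 0.34 (SE 0.31) for Fyb. For the FcD combination they were those of Vav1, a Rac exchange factor downstream of antigen receptors, at 63.8 ± 13.4 against 36.6 ± 1.79 CPM (SD, n = 5) with all 5 mice above all controls, and of Cyth1 (0.39, SE 0.18). With the anti-TGF-β combination they were those of Rasgrp2, the exchange factor for Rap1 (0.74, SE 0.33, unadjusted p = 0.0295), and Arhgdib (0.22, SE 0.11). All 5 mice above all controls, as in Vav1, was found for 1.96% of all genes with the FcD combination.

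Among 13 other leukocyte integrins and adhesion receptors tested, 5, 2 and 1 were nominally higher and 0, 0 and 1 lower in the WT, FcD and anti-TGF-β combinations, where 20.7%, 16.6% and 20.1% of all genes were nominally different, so the FcD and anti-TGF-β counts were no larger than for genes in general. Itga1, a collagen receptor subunit, was at 7.21 ± 1.19 CPM in the isotype control, 14.3 ± 12.1 CPM with the WT and 14.6 ± 4.82 CPM with the FcD combination (SD, n = 5 each). The T cell receptor Cd2, which binds CD48, had 1.34 (SE 0.51) with the WT combination, and Itga6, a laminin receptor subunit, had -0.29 (SE 0.14) with the anti-TGF-β combination, where 4 of 5 mice lay below all controls. Without the tumor that stood apart 0 of the 13 were nominally different with the WT combination, with 0.33 (SE 0.30) for Itga1 and 0.61 (SE 0.48) for Cd2.

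Among 13 other endothelial ligands and junction proteins tested, 3, 5 and 1 were nominally higher and 1, 1 and 0 lower in the WT, FcD and anti-TGF-β combinations, and the 1 gene of the anti-TGF-β combination lay near the 8.49% of all genes. Cx3cl1, the membrane-bound chemokine fractalkine, which itself acts as an adhesion molecule, was at 1.33 ± 0.479 CPM in the isotype control and at 4.34 ± 2.65 CPM with the FcD combination (SD, n = 5 each). All 5 FcD mice lay above all controls, as did those of 1.96% of all genes. The log2 fold change of Cx3cl1 was 1.70 (SE 0.39, unadjusted p = 9.93e-05, adjusted p = 0.225), and with the WT combination it was 1.37 (SE 0.39). Ackr1, a chemokine carrier of venules, had 2.03 (SE 0.72) with the FcD and 1.57 (SE 0.73) with the anti-TGF-β combination, at means of 1.14 and 0.831 against 0.266 CPM. Pecam1 had 1.09 (SE 0.35) with the WT combination, at 96.6 ± 96.9 CPM (SD, n = 5), and F11r, a junction protein, had 0.73 (SE 0.36) with the anti-TGF-β combination. When the tumor that stood apart was left out, 1 of the 13 was nominally higher with the WT combination, Cx3cl1 (0.91, SE 0.37), and Pecam1 had 0.26 (SE 0.26). Without replicate 4 of the FcD combination 1 was nominally higher there, again Cx3cl1 (1.28, SE 0.38), and Ackr1 had 1.43 (SE 0.74).

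A list of enzymes that build selectin ligands and 1 ligand (Glg1) had 13 genes tested, of which 1, 0 and 1 were nominally higher and 1, 1 and 2 lower, against 20.7%, 16.6% and 20.1% of all genes nominally different in either direction. St3gal6, a sialyltransferase, was at 51.5 ± 2.31 CPM in the isotype control mice, 35.9 ± 11.2 CPM with the WT and 37.1 ± 6.85 CPM with the FcD combination (SD, n = 5 each), with log2 fold changes of -0.52 (SE 0.15, unadjusted p = 0.00181) and -0.47 (SE 0.15, unadjusted p = 0.00407). All 5 FcD mice and 4 of 5 WT mice lay below all controls. The share of all genes that lay wholly below the controls was not counted. Fut7, the fucosyltransferase that completes the selectin-binding carbohydrate, was at 3.09 ± 3.09 CPM with the WT combination against 1.34 ± 0.469 CPM (SD, n = 5 each), with 2 of 5 mice above all controls. Leaving out the tumor that stood apart, St3gal6 had -0.35 (SE 0.13, unadjusted p = 0.00848) with the WT combination and was the 1 nominally different gene of the list, and Fut7 had 0.39 (SE 0.36). Tpst2, a tyrosine sulfotransferase, had -0.16 (SE 0.09) with the FcD combination, and its relative Tpst1 had 0.24 (SE 0.07, unadjusted p = 0.00193) with the anti-TGF-β combination, where Glg1, an E-selectin ligand, had -0.46 (SE 0.17).

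Of the cytokines that induce endothelial ligands, 9 of 12 passed the filter, and 3, 6 and 4 of these were nominally higher in the WT, FcD and anti-TGF-β combinations, with none lower. Tnf was at 8.35 ± 2.09 CPM in the isotype control, 15.9 ± 5.38 with the WT and 18.7 ± 3.45 with the FcD combination (SD, n = 5 each), with all 5 mice of both groups above all controls and log2 fold changes of 0.93 (SE 0.34) and 1.16 (SE 0.34). Ifng was at 1.19 ± 0.489 CPM in the isotype control, 3.09 ± 1.52 with the WT and 3.31 ± 0.915 with the anti-TGF-β combination (SD, n = 5 each), again with all 5 mice above all controls, with 1.36 (SE 0.47) and 1.46 (SE 0.48). Of all genes, 1.35%, 1.96% and 1.73% had all 5 mice above all controls in the WT, FcD and anti-TGF-β combinations. Il1a had 1.16 (SE 0.34, unadjusted p = 0.00166) with the FcD combination, and Il6 had 1.43 (SE 0.50, unadjusted p = 0.00747) with the anti-TGF-β combination. Ifng (1.03, SE 0.48) and Tnf (0.71, SE 0.35) were the 2 genes nominally higher with the WT combination without the tumor that stood apart, and without replicate 4 of the FcD combination 6 were there. No gene of the 5 lists passed an adjusted p of 0.05 in these 3 comparisons.

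As a description, the genes whose log2 CPM was most like that of each member over the 40 mice were sought among all tested genes by Pearson's r. For Icam1 they were Irf8 (0.961), Themis2 (0.957) and Nod1 (0.954), for Selplg Fermt3 (0.976), Rac2 (0.976) and Sirpa (0.975), and for Itgb2 Slc11a1 (0.986), Sdc3 (0.981) and Ptk2b (0.981). For Itgal they were Ptpn6 (0.953), Lair1 (0.953) and Tmem229b (0.948), and for Itga4 Dock10 (0.971), Ptprc (0.963) and Fyb (0.96). Many of these are leukocyte genes, and Ptprc encodes the pan-leukocyte protein CD45. Sele and Selp were each among the 3 genes most like the other (0.824), beside Unc13c (0.805) and Plxnb1 (0.798) for Sele and Ghr (0.834) and Tnfaip2 (0.819) for Selp. The values were lower for Vcam1, with Nfkbie (0.719), Casp12 (0.663) and Mitd1 (0.661), and for Itgb7, with Vat1 (0.806), Lgals3 (0.766) and Grina (0.761).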

How the data were processed

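RNA from fragments of 40 CT26 tumors (TruSeq Stranded mRNA, paired reads of 100 bases) had been aligned by the authors to GRCm38 with STAR 2.5.3a, processed with SAMtools 1.6 and counted per gene with HTSeq 0.9.1 (versions per the submitters' processing notes). The deposited file holds raw, unnormalized counts for 54087 genes, from 11931730 to 20680548 per mouse. Its 40 columns were matched to mice by title, and the labels gave the groups. Nothing in the sources used here says whether counting used the strand.

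In edgeR 4.0.16 (with limma 3.58.1, under R 4.3.3), genes were filtered with filterByExpr (14760 kept), library sizes scaled with TMM, and 1 model fitted to all 40 mice. The robust quasi-likelihood test, 2-sided, gave 13 comparisons (7 against isotype control, 3 against anti-PD-1 alone, 3 interactions), with Benjamini-Hochberg adjusted p-values over all genes. Each SE was derived from the log2 fold change and its F statistic. Fold changes within library parts came from the same model fitted to each part, as values without a test. Log2 CPM used a prior count of 2. Merged exon lengths and positions came from a GENCODE annotation of GRCm38. Permutation tests used Python 3.11.15, numpy 2.4.6, scipy 1.17.1 and pandas 2.3.3, and permutations for correlations were drawn within groups.

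Tested on simulated counts for the FcD combination against isotype control (14760 genes), the test recovered 73% of 100 genes changed by a log2 fold change of 1 and 96% of 100 changed by 2, with 6 false calls, and made 0 calls in a comparison without change. The simulated counts were drawn independently for each gene, without a tumor that stood apart, so these shares need not hold for the real data. The members, gene lists and marker lists were chosen with earlier results of these data known. The text names the 9 members, the 2 genes of each pathway list with the smallest p in each combination against the isotype control (1 gene that this rule picked is not reported here), the 3 genes most like each member, and Lrrc32, Tgfb1 and Pdcd1. Marker genes named beyond that rule were chosen after their values were seen. Alternatives were DESeq2 1.42.0 (size factors, Wald test), no filter, the library part as a covariate, only the compared groups, no subtraction of group means, mice permuted within library parts, a prior count of 0.5, 1 marker gene, and each mouse left out.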

Additional observations from a re-analysis of the deposited data

Results flagged for a closer look

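The levels of the 9 genes in the 8 groups gave 72 sets of 5 mice. In 9 of them 1 mouse lay farther from the others than Dixon's 95% critical value of 0.71 of the range allows. The rate of about 1 in 20 behind that value holds for independent sets of normally distributed values. These sets hold unlogged CPM and share mice, so 9 of 72 cannot be set against it. Replicate 5 of the WT combination accounts for 4 of these 9, with 209 CPM of Selplg (the other 4 mice at 32 to 66.4), 277 CPM of Itgal (46.5 to 103), 171 CPM of Itga4 (19.9 to 44.6) and 649 CPM of Itgb2 (144 to 279). Replicate 2 of the FcD combination was low for Itgal, at 59.7 CPM against 105 to 119, and for Itga4, at 15.2 CPM against 44.5 to 55.4, and had the lowest leukocyte marker sum of its group, 909 CPM. Replicate 2 of anti-PD-1 FcS had 75.4 CPM of Selplg, against 20.2 to 34.4 in its group. Replicate 2 of the FcD form alone had 272 CPM of Sele, against 121 to 157, the highest Sele of all mice. Replicate 2 of the isotype control had 327 CPM of Vcam1, against 233 to 255.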

How the results depend on the processing

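The 27 log2 fold changes of the members in the combinations against the isotype control kept their direction and stayed on the same side of an adjusted p of 0.05 with DESeq2 size factors, the DESeq2 Wald test, no filter, the library part as a covariate and only the compared groups, and the 72 group means moved by less than 1 SD with size factors. The 27 marker comparisons kept direction and side with a prior count of 0.5. With mice permuted within library parts none passed either. That setting leaves each difference as it is and allows fewer divisions of the mice, so it could hardly have come out otherwise. No paired analysis was possible because the labels number no replicates, and the numbers used here only name the mice of a group.

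Counts of called genes, 0 or 1 in the model of all mice, moved more. The DESeq2 Wald test called 1 gene each for the WT form, anti-TGF-β and anti-PD-1 FcS against isotype control and for the interaction of the WT form, 2 for that of anti-TGF-β, 14 for the FcD combination and 137 for the anti-TGF-β combination against isotype control, and 78 for the latter against anti-PD-1 FcS. With the library part as a covariate 17 genes were called for the FcD combination. With only the compared groups, 7 were called for the anti-TGF-β combination against isotype control and 0 against anti-PD-1 FcS. With 1 mouse left out, the anti-TGF-β combination had 0 to 2013 calls against isotype control and 0 to 1748 against anti-PD-1 FcS, both highest without its replicate 1, and 0 to 1 for its interaction. The WT combination had 0 to 543 against anti-PD-1 FcS, highest without anti-PD-1 FcS replicate 2. The causes were not tested.

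Some values changed sign with 1 mouse left out. In the WT combination, Sele ran from -0.31 to 0.0066 and Selp from -0.28 to 0.0088, in the FcD combination Selp from -0.16 to 0.025, and in the anti-TGF-β combination Itga4 from -0.11 to 0.24. Relative to markers, the WT combination gave Vcam1 -0.63 to 0.084, Selplg -0.047 to 0.064, Itga4 -0.12 to 0.087 and Itgb7 -0.56 to 0.0063, the FcD combination Itga4 -0.083 to 0.15, and the anti-TGF-β combination Itgal -0.11 to 0.13 and Itgb2 -0.030 to 0.048. With 1 marker gene (Cdh5 or Ptprc) in place of the list, Selplg (-0.18) and Itga4 (-0.19) in the WT, Itgal (-0.094) in the FcD and Vcam1 (0.011) in the anti-TGF-β combination changed sign.

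Without subtracting group means, the pairs Sele and Selplg (r = -0.425) and Selp and Selplg (r = -0.458) passed an adjusted permutation p of 0.05 for r (0.0109 and 0.00835) but not for rho (-0.219 and -0.277, adjusted p = 0.243 and 0.146), and Itga4 and Itgb7 had r = 0.0365. Without the 2 farthest mice, Selp and Selplg had r = 0.0152. The test on simulated counts recovered 73% of genes changed by a log2 fold change of 1 and 96% of those changed by 2. Those counts varied independently between genes, so the shares need not hold for the real data.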
